A study of Mus musculus with 8 samples.

Results

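The transcripts described here encode 9 enzymes that make cellular NADPH or belong to the pentose phosphate pathway, which makes it. They are G6pdx, Pgls and Pgd of the oxidative pentose phosphate pathway and Rpia, Tkt and Taldo1 of its non-oxidative branch. The others are the cytosolic malic enzyme Me1 and the NADP-dependent isocitrate dehydrogenases Idh1 and Idh2. All 9 were found by symbol among the 54427 genes of the deposited table. The set was chosen by function together with 1 measured value, the higher Idh1 level in AP_OCA that an earlier analysis of these data had found, so differences of these 9 between AP and AP_OCA are given as a description, with no p-value, and a count of them past a threshold restates that choice. The cells were primary pancreatic acinar cells of wild-type mice, freed from the tissue with collagenase and injured in culture over 6 h with the octapeptide of cholecystokinin (CCK) at 1 µM. This gut hormone makes acinar cells release their digestive enzymes, and in excess it damages them. The 4 AP libraries (AP1 to AP4) carry this injury, and the 4 AP_OCA libraries (AP_OCA1 to AP_OCA4) carry it with OCA, by its common reading obeticholic acid, a drug that activates FXR, a nuclear receptor for bile acids. The treatment text, which states OCA at 2.5 µM, is identical for all 8 libraries, so that only the titles tell the groups apart. There was no library of uninjured cells among those analysed. The strain, age and sex of the mice are not given in the labels, nor whether replicates came from separate animals. The errors below therefore measure the spread between these libraries, which may be technical. Standard errors (SE) of log2 fold changes are moderated, that is, drawn toward the spread of tested genes at a like level.

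NADPH is the reductant that cells spend on regenerating glutathione and thioredoxin and on building fatty acids and sterols. Glucose-6-phosphate dehydrogenase, encoded by G6pdx, commits glucose to the pentose phosphate pathway and makes NADPH in the cytosol, and phosphogluconate dehydrogenase, encoded by Pgd, makes it again further down the same route. Malic enzyme and the isocitrate dehydrogenases make NADPH from intermediates of the citric acid cycle, Idh1 in the cytosol and peroxisomes and Idh2 in mitochondria. The acinar cell is a secretory cell with a large load of protein folding, and its injury by CCK is known to involve oxidative stress.

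Values are in CPM, the deposited log2 values returned to a linear scale and scaled to a sum of 1000000 per library. The authors' columns had been brought to a shared distribution, so a CPM value is a position in that distribution and not a share of a library's reads, and the read totals are unknown. Within a library the low values form steps like whole counts, and 1 CPM lay on step 10 to 15 in 7 libraries and on step 66 in AP_OCA2. AP_OCA2 stood apart from the other 7. Its immune markers summed to 12422 CPM against 39.5 to 136 elsewhere, with all 9 of the list over 2-fold above the highest other library, and its 8 islet markers summed to 9.09 CPM against 508 to 2149. The 10 acinar markers summed to between 355472 and 387173 CPM in all 8 libraries, a sum led by values that the shared distribution fixes, and in AP_OCA2 3 of the 10 lay over 2-fold below the lowest other library. So did 5 of 7 ductal markers, which summed to 40.6 CPM there against 273 to 469 elsewhere. Whether AP_OCA2 is a preparation of the same kind as the others was not tested. AP_OCA2 is therefore shown apart, and group values of AP_OCA are those of AP_OCA1, AP_OCA3 and AP_OCA4 (n = 3) unless 8 libraries are named.

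Per length of transcript, Taldo1 and Pgls were the most abundant of the 9 and G6pdx, the entry enzyme of the pathway, was the least. In AP, Taldo1 stood at 43.4 ± 3.84 CPM per kilobase (SD, n = 4), Pgls at 37.0 ± 6.51 and Idh2 at 31.8 ± 4.02. Each overlapped its neighbour in the AP ranges, while Taldo1 lay wholly above Idh2. Tkt followed at 15.2 ± 1.56, below every Idh2 value and above every Pgd value. Pgd stood at 8.29 ± 1.21 CPM per kilobase and Idh1 at 5.71 ± 1.06, with overlapping ranges. Me1 at 3.62 ± 0.627, Rpia at 2.47 ± 0.777 and G6pdx at 1.85 ± 0.287 closed the order, each overlapping its neighbour, and Me1 lay below every Idh1 value. In AP_OCA the order was the same except that Idh1, at 13.8 ± 2.55 CPM per kilobase (n = 3), had passed Pgd at 7.83 ± 2.22. Lengths are those of the longest protein-coding transcript in the annotation, from 1062 bases for Pgls to 3292 for Me1, and another choice of transcript would shift these levels.

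**Figure D1:**
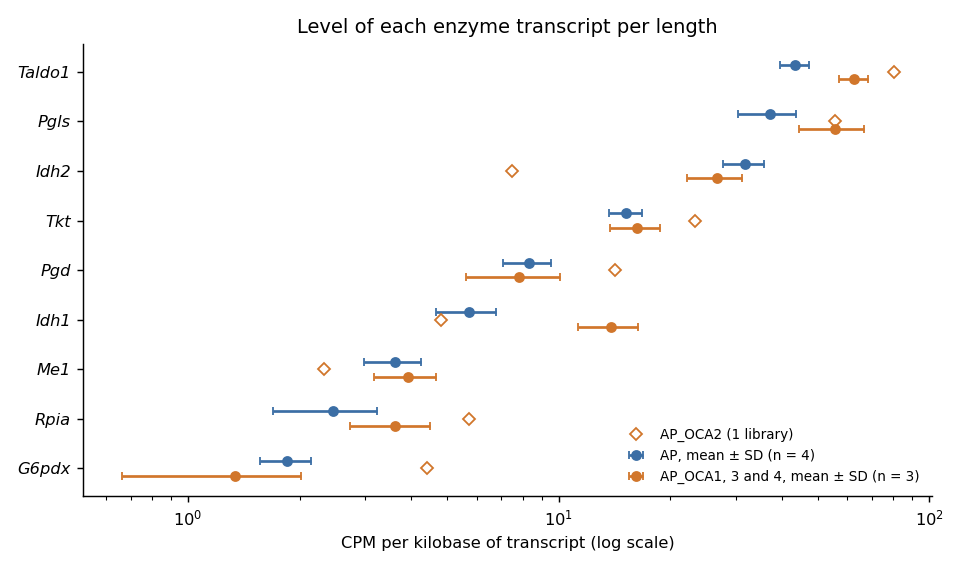
Level of each transcript in CPM per kilobase on a log axis, as the mean ± SD of the 4 AP libraries (blue) and of AP_OCA1, AP_OCA3 and AP_OCA4 (orange), with AP_OCA2 as an open diamond. Taldo1 and Pgls lead in both groups, and Idh1 has the largest ratio between its group means, 13.8 against 5.71.

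Idh1, the cytosolic and peroxisomal isocitrate dehydrogenase, gave the value that led to this set. It stood at 16.8, 12.2, 12.2 and 11.5 CPM in AP1 to AP4, at 25.3 in AP_OCA1, 33.6 in AP_OCA3 and 36.6 in AP_OCA4, and at 11.1 in AP_OCA2. The 3 AP_OCA libraries lay above every AP library, while AP_OCA2 lay below all of them. The mean was 13.2 ± 2.43 CPM in AP (SD, n = 4) and 31.9 ± 5.86 in AP_OCA (n = 3), and the log2 fold change of CPM + 1 was 1.21 ± 0.20 (SE) over these 7 libraries. Over all 8 libraries it was 0.86 ± 0.36. Idh1 has the lowest GC content of the 9 transcripts, 43.8%, and with each library's trend with transcript length and GC content removed its log2 fold change over 7 libraries was 0.92 ± 0.17. The gene lies on chromosome 1 of mm10, from 65158616 to 65186500 on the minus strand.

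Idh2, the mitochondrial enzyme that makes NADPH by the same reaction, did not separate the groups. Its values were 56.1, 56.4, 63.4 and 46.3 CPM in AP1 to AP4 and 49.1, 52.8 and 37.8 in AP_OCA1, AP_OCA3 and AP_OCA4. The groups overlapped, with AP_OCA4 the lowest of the 7 libraries. AP_OCA2 stood at 13.02 CPM, 4.05-fold below the median of the other 7. The log2 fold change was -0.25 ± 0.18 over 7 libraries, -0.11 without AP_OCA4, and -0.69 ± 0.41 over 8. Idh1 made up 15.3% ± 2.47 of the summed per-kilobase level of Idh1 and Idh2 in AP (n = 4), with a range of 12.7% to 18.5%. In AP_OCA it made up 34.3% ± 7.31 (n = 3), from 28.1% to 42.4%, and in AP_OCA2 39.2%. In AP_OCA2 the share was high with Idh1 at its lowest, where Idh2 was lower by more. Idh2 lies on chromosome 7, from 80094846 to 80115392 on the minus strand.

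Me1, which turns malate to pyruvate in the cytosol, had values of 11.3, 10.5, 10.8 and 14.95 CPM in AP1 to AP4. In AP_OCA1, AP_OCA3 and AP_OCA4 it had 14.9, 10.1 and 13.7. The groups overlapped over nearly their whole range, and AP_OCA2, at 7.64 CPM, lay below all 7. The log2 fold change was 0.10 ± 0.21 over 7 libraries and -0.06 ± 0.25 over 8. Me1 lies on chromosome 9, from 86581371 to 86695953 on the minus strand.

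**Figure D2:**
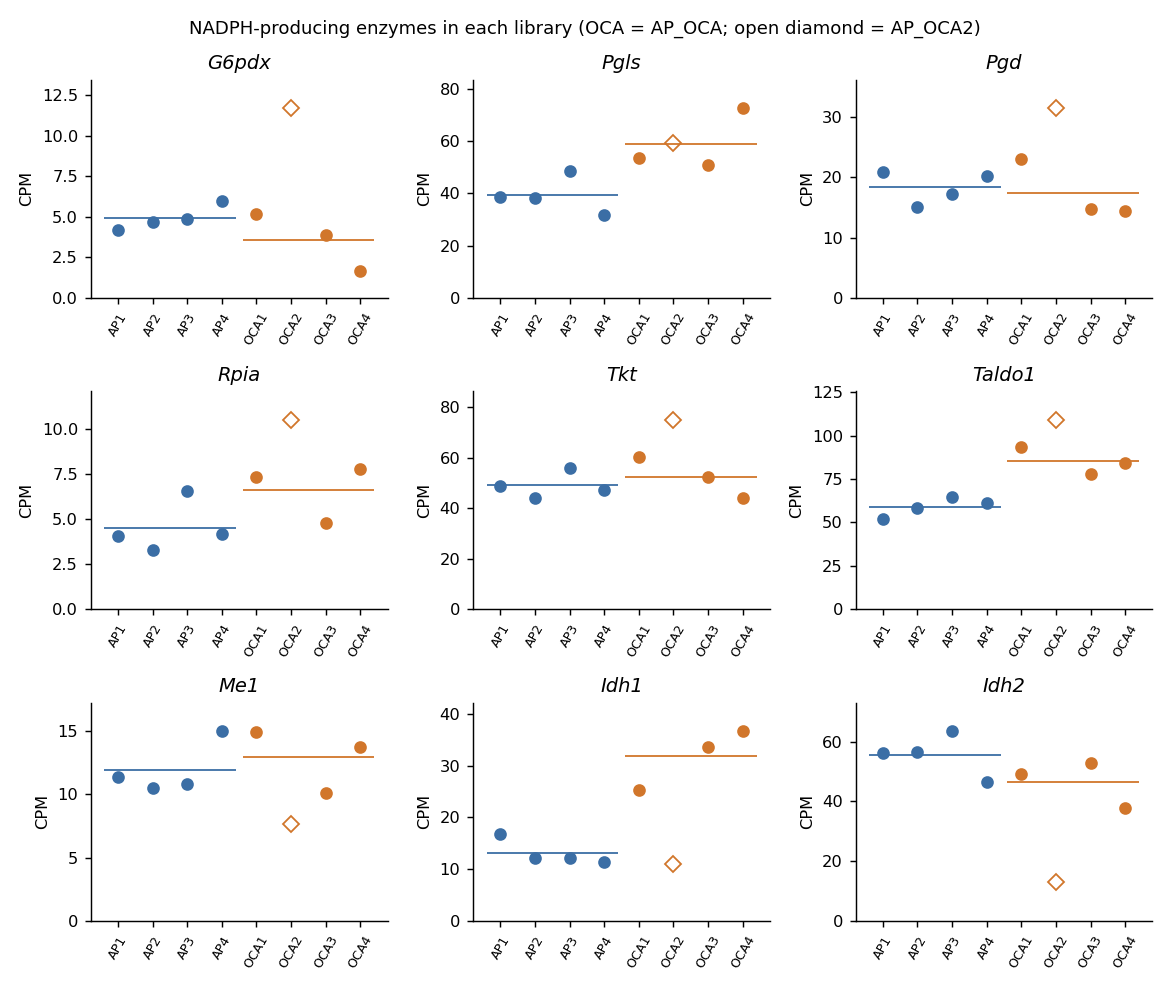
CPM of each of the 9 transcripts in each library, with 1 panel per gene and axes from 0; blue points are AP, orange points AP_OCA, the open diamond is AP_OCA2, and lines mark the means of AP1 to AP4 and of AP_OCA1, AP_OCA3 and AP_OCA4. Idh1, Pgls and Taldo1 are the genes whose 3 filled AP_OCA points lie above every AP point, and the diamond is the highest point for G6pdx, Pgd, Rpia, Tkt and Taldo1 and the lowest for Me1, Idh1 and Idh2.

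The oxidative steps of the pentose phosphate pathway had no common direction. G6pdx stood at 4.17, 4.65, 4.87 and 5.97 CPM in AP1 to AP4 and at 5.17, 3.85 and 1.63 in AP_OCA1, AP_OCA3 and AP_OCA4. AP_OCA1 lay inside the AP range and the other 2 below it, with AP_OCA4 on step 18 of its library. The log2 fold change was -0.46 ± 0.29 over 7 libraries and -0.07 ± 0.43 over 8, with AP_OCA2 at 11.7 CPM. Without AP_OCA4 the 7-library value was -0.10, and without AP_OCA1 -0.72. The span of G6pdx lies wholly within that of Ikbkg, an NF-kB pathway gene on the opposite strand, which held 3.75 to 12.2 CPM and was likewise highest in AP_OCA2. Whether counting used strand is not stated, so reads of the 2 genes may not be told apart.

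Pgls, which opens the lactone that G6pdx makes, stood at 38.6, 38.3, 48.6 and 31.8 CPM in AP1 to AP4. In AP_OCA1, AP_OCA3 and AP_OCA4 it stood at 53.6, 50.8 and 72.5, and AP_OCA2, at 59.1, lay among them. All 4 AP_OCA libraries lay above all 4 AP libraries, by a small gap between AP3 and AP_OCA3. Fam129c, which overlaps Pgls on the same strand, held at most 2.08 CPM in any library. The log2 fold change was 0.57 ± 0.19 over 7 libraries and 0.57 ± 0.22 over 8.

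Pgd, the second NADPH-making step, stood at 20.9, 15.2, 17.2 and 20.3 CPM in AP1 to AP4 and at 23.1, 14.7 and 14.3 in AP_OCA1, AP_OCA3 and AP_OCA4. The groups overlapped, with 1 AP_OCA library above and 2 below the AP range. The log2 fold change was -0.10 ± 0.21 over 7 libraries and 0.11 ± 0.28 over 8, where AP_OCA2 brought 31.4 CPM. G6pdx lies on chromosome X (74409483 to 74429194, minus strand), Pgls on chromosome 8 (71592176 to 71601092, plus strand) and Pgd on chromosome 4 (149149991 to 149166771, minus strand).

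In the non-oxidative branch, which rearranges sugar phosphates and returns them to glycolysis, Taldo1 separated the groups in CPM and Tkt did not. Taldo1, the transaldolase, stood at 52.2, 58.1, 64.4 and 61.5 CPM in AP1 to AP4 and at 93.5, 78.1 and 84.4 in AP_OCA1, AP_OCA3 and AP_OCA4, with AP_OCA2 at 109. All 4 AP_OCA libraries lay above all 4 AP libraries. It had the smallest spread of the 9 within AP, a coefficient of variation of 8.86%, and a log2 fold change of 0.52 ± 0.16 over 7 libraries and 0.61 ± 0.21 over 8.

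Tkt, the transketolase that works beside it, stood at 49.0, 44.2, 56.0 and 47.1 CPM in AP and at 60.4, 52.4 and 44.3 in AP_OCA, with AP_OCA2 at 75.0. Only AP_OCA1 of the 3 lay above the AP range. The log2 fold change of Tkt was 0.09 ± 0.17 over 7 libraries and 0.22 ± 0.23 over 8. Once the trend with length and GC was taken out, Tkt was at 0.36 ± 0.13 over 7 and Taldo1 at 0.40 ± 0.14. Over 8 libraries with that trend out, Tkt was at 0.54 and Taldo1 at 0.45. The contrast of Taldo1 with Tkt therefore depended on whether that trend was removed. The per-kilobase ratio of Taldo1 to Tkt was 2.86 ± 0.286 in AP (n = 4, at most 3.11), 3.90 ± 0.532 in AP_OCA (n = 3, at least 3.53) and 3.44 in AP_OCA2.

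Rpia, the ribose-5-phosphate isomerase, stood at 4.05, 3.28, 6.56 and 4.15 CPM in AP and at 7.34, 4.78 and 7.74 in AP_OCA, with AP_OCA2 at 10.5. AP3 lay above AP_OCA3, so the groups overlapped. The coefficient of variation within AP was 31.5%, the widest of the 9, and the log2 fold change was 0.48 ± 0.26 over 7 libraries and 0.63 ± 0.28 over 8. Taldo1 lies on chromosome 7 (141392199 to 141402968, plus strand), Tkt on chromosome 14 (30548359 to 30574720, plus strand) and Rpia on chromosome 6 (70765720 to 70792232, minus strand).

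**Figure D3:**
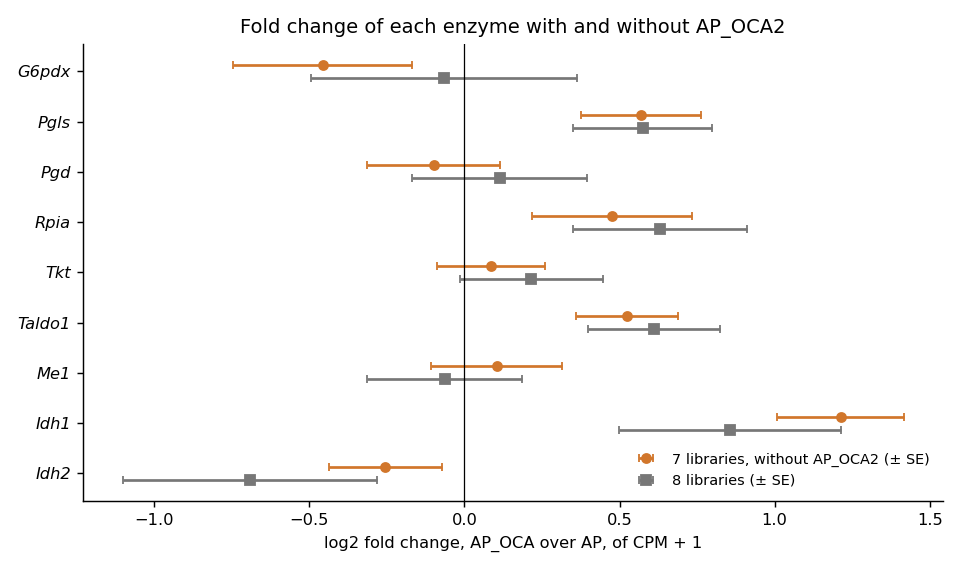
Log2 fold change of CPM + 1, AP_OCA over AP, with its standard error, for each of the 9 transcripts in the fit of 7 libraries without AP_OCA2 (orange circles) and of all 8 (grey squares). Idh1 has the largest value in both, 1.21 and 0.86. Pgls and Taldo1 keep nearly the same value with and without AP_OCA2, while Idh1, G6pdx and Idh2 shift most with it.

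Set against all genes, the counts for the 9 were as follows, and since the set was chosen with this contrast known, nothing is read from them. Over 7 libraries 2.44% of 10894 tested genes passed the limma threshold of an adjusted p of 0.05. Of those tested, 0.854% passed as higher in AP_OCA and 1.59% as lower. Of the 9, 1 was past that threshold, Idh1 itself. Idh1 was not past it without AP2, AP3, AP4 or AP_OCA3, nor with no filter on low values or without the mean-variance trend, and its log2 fold change ranged from 1.11 to 1.36 over the 7 fits that left out 1 more library. Groups did not overlap for 3 of 9, all higher, where 11.1% of tested genes lay wholly higher and 12.1% wholly lower. Over 8 libraries none of the 9 passed, as 0% of 11311 tested genes did, although 1830 of all genes had an unadjusted p under 0.05 and limma with quality weights per library called 1052. With 8 libraries 2 of 9, Pgls and Taldo1, lay wholly higher, where 6.75% of genes lay wholly higher and 8.57% wholly lower. The median log2 fold change of the 9 was 0.10 over 7 libraries and 0.22 over 8, beside -8.96e-05 and -0.01 over all tested genes.

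AP_OCA2 lay above all 7 other libraries for 5, the pentose phosphate genes G6pdx, Pgd, Rpia, Tkt and Taldo1, and below all 7 for 3, Me1, Idh1 and Idh2. Pgls lay within their range. Of all tested genes, AP_OCA2 lay above all others for 32.5% and below for 36.9%. G6pdx stood 2.51-fold and Rpia 2.19-fold above the median of the other 7, Pgd 1.82-fold, Taldo1 1.69-fold and Tkt 1.53-fold. Idh1 stood 1.51-fold and Me1 1.48-fold below it. In the same library the immune list led with Cd74 at 9263 CPM and Igkc at 2226, and the adipocyte list, led by Cfd at 274 and Fabp4 at 114, summed to 450 against 12.2 to 89.0 elsewhere. Their part in the levels of the 9 was not tested, and in a bulk library fewer cells of a type and less RNA per cell cannot be told apart.

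Sums of some marker lists also differed between AP and the 3 AP_OCA libraries. Over these 7 libraries 11.1% of all tested genes lay wholly higher in AP_OCA and 12.1% wholly lower. The counts of single markers below are to be read against those shares. The 7 ductal markers, led by Krt19 and Muc1, summed to 273 to 338 CPM in AP and 374 to 469 in AP_OCA, with 3 of 7 wholly higher. Krt19 stood at 83.5 to 144 in AP and 156 to 198 in AP_OCA, while Muc1 overlapped (115 to 158 and 84.0 to 153). The 6 stellate markers, led by Col3a1 and Dcn, summed to 162 to 224 in AP and 101 to 158 in AP_OCA, with 4 of 6 wholly lower, although Dcn went the other way (17.1 to 43.4 and 37.6 to 48.1). The 6 endothelial markers, led by Plvap and Pecam1, summed to 94.3 to 129 and 32.6 to 90.7, with 1 of 6 wholly lower. The acinar markers, led by Ctrb1 and Pnlip, summed to 379305 to 387173 in AP and 363599 to 373824 in AP_OCA, with 1 of 10 wholly lower. The sums of the islet (Ins2, Ins1), adipocyte, red blood cell (Hbb-bs, Hba-a1) and immune lists overlapped between the groups, with 1 of 5 red blood cell and 1 of 9 immune markers wholly lower. Cd3e was at 0 in all 7. The part of these differences in the higher Idh1, Pgls and Taldo1 was not tested.

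The start regions of 3 of these genes are shown because they hold, in Idh1, the gene with the highest fold change, and in G6pdx and Me1, the motif through which the oxidative stress factor NRF2 is known to bind many NADPH genes. RefSeq promoter windows (GRCm38.p6, the mm10 assembly; 300 bases each, ending 50 bases after a start) gave 12 windows for the 9 genes, 2 each for Idh1, Pgd and Me1. Capitals mark motif matches, and sequences read 5′ to 3′ on the gene's own strand. The Idh1 stretches hold the GC box GGGCGG, written CCGCCC where it lies on the other strand, and the upstream one also CCAAT. The G6pdx and Me1 stretches hold the antioxidant response element core TGACNNNGC, which in G6pdx lies on the other strand, and only that motif is in capitals there.
Idh1 upstream start, chr1:65186560-65186669, minus strand: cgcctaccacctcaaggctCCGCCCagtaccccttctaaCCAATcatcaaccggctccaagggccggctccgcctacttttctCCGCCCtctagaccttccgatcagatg
Idh1 downstream start, chr1:65179143-65179202, minus strand: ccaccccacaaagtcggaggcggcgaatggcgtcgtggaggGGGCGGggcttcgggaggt
G6pdx, chrX:74428901-74428960, minus strand: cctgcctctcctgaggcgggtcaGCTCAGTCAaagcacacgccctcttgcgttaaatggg
Me1, chr9:86695905-86695974, minus strand: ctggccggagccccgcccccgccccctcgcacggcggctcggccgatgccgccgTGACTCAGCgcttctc

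The antioxidant response element core was found, on either strand, in 3 of the 12 windows, those of G6pdx, Me1 and the downstream start of Pgd, and in 12.4% of all 32851 windows. Neither Idh1 window held it. The GC box was in 10 of the 12 windows, covering all 9 genes, and in 35.7% of all windows, and CCAAT was in 5 of 12 and 37.4%. The E-box CACGTG (7.15% of all windows), the sterol regulatory core TCACNCCAC (1.24%) and the FXR inverted repeat (3 of all windows) were in none of the 12. A match is a run of letters and not a bound site, and a missing match says only that these letters are not in the window.

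Among other sources of NADPH and the NAD kinases, 13 of 15 genes were tested over 7 libraries, and none passed in either direction (limma with Benjamini-Hochberg adjustment; 2 had an unadjusted p under 0.05). An unadjusted p under 0.05 was found for 25.7% of all genes tested over 7 libraries, so the counts of it given here and for the lists that follow are to be read against that share. The lowest p belonged to Aldh1l2, the mitochondrial formyltetrahydrofolate dehydrogenase that makes NADPH in the folate pathway. Aldh1l2 stood at 31.7, 31.7, 18.5 and 30.1 CPM in AP1 to AP4 and at 15.9, 17.9 and 9.59 in AP_OCA1, AP_OCA3 and AP_OCA4, a log2 fold change of -0.92 ± 0.25 (adjusted p = 0.0576 by limma). H6pd, which runs the first pentose phosphate steps inside the endoplasmic reticulum, had -0.93 ± 0.43 (adjusted p = 0.210 by limma), with AP_OCA4 at 5.16 CPM, AP_OCA1 at 22.9 and AP_OCA3 at 21.2 against 24.6 to 35.2 in AP. Without AP_OCA4 the value for H6pd was -0.29, and with the trend of length and GC taken out -0.51. Shmt2, the mitochondrial serine hydroxymethyltransferase, had -0.37 ± 0.17, and -0.17 with that trend out. Over 8 libraries Aldh1l2 had -1.70 ± 0.68, with AP_OCA2 at 0.732 CPM, and Shmt2 -0.92 ± 0.49, with AP_OCA2 at 24.4. Neither passed over 8 libraries. Nnt, the mitochondrial transhydrogenase that makes NADPH from NADH, was at most 0.314 CPM in any library (steps 0 to 10), below the test's minimum; it was named after its values were seen.

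No gene passed among the nearer pentose phosphate genes or the citrate, isocitrate and malate enzymes. Of 13 pentose phosphate neighbours 10 were tested and none passed (limma; 0 had an unadjusted p under 0.05), with Dera, which links deoxyribose phosphate to glycolysis, at 0.56 ± 0.27, Hk2, a hexokinase, at -0.47 ± 0.24 and Prps2, which makes phosphoribosyl pyrophosphate from ribose phosphate, at 0.21 ± 0.28. All 17 citrate, isocitrate and malate genes were tested and none passed (5 had an unadjusted p under 0.05). The cytosolic malate dehydrogenase gene Mdh1 stood at 39.8 ± 1.88 CPM in AP (SD, n = 4) and 56.2 ± 13.98 in AP_OCA (n = 3), and the mitochondrial Mdh2 at 76.8 ± 6.97 and 99.1 ± 2.27. Their log2 fold changes were 0.46 ± 0.19 and 0.37 ± 0.16, and that of Ogdh, a subunit of the oxoglutarate dehydrogenase complex, was -0.46 ± 0.18. With the trend of length and GC taken out, Mdh1 was at 0.21, Ogdh at -0.17, Hk2 at -0.17 and Prps2 at 0.02, and without AP_OCA4 Mdh1 was at 0.29, Hk2 at -0.24 and Prps2 at 0.10. The list medians were 0.03 and 0.07.

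Of the enzymes that spend NADPH, 20 of 24 were tested over 7 libraries and none passed (limma; 5 had an unadjusted p under 0.05), with 10 positive and 10 negative log2 fold changes and a median of -0.01. Fasn, the fatty acid synthase, stood at 74.5 ± 11.4 CPM in AP (SD, n = 4) and 46.2 ± 13.2 in AP_OCA (n = 3), a log2 fold change of -0.70 ± 0.21 (adjusted p = 0.0729 by limma). AP_OCA2, at 77.2 CPM, lay inside the AP range, and the value over 8 libraries was -0.51 ± 0.29. With the trend of length and GC taken out, Fasn over 7 libraries was at -0.25 (adjusted p = 0.371 by limma). Sc5d, a sterol desaturase, had 0.66 ± 0.25 and the aldose reductase gene Akr1b3 had 0.56 ± 0.21, neither passing, and without AP_OCA4 they were at 0.39 and 0.33.

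Among NRF2 regulators and targets, 1 of 16 tested genes passed over 7 libraries by limma, where 2.44% of all tested genes passed. Of the 16, 5 had an unadjusted p under 0.05. Txn1, thioredoxin, which receives electrons of NADPH through thioredoxin reductase, stood at 63.7, 63.4, 63.0 and 67.1 CPM in AP1 to AP4 and at 110, 114 and 192 in AP_OCA1, AP_OCA3 and AP_OCA4, with AP_OCA2 at 181. Txn1 was higher by 1.05 ± 0.20 on the log2 scale (adjusted p = 0.0271 by limma), and all 4 AP_OCA libraries lay above all 4 AP libraries. Since this list was chosen with earlier results of these data known, that p is a description. It passed in 2 of the 7 fits that left out 1 more library, losing the call without AP1, AP2, AP3, AP4 or AP_OCA3, and with the length and GC trend removed its log2 fold change was 0.58 ± 0.14 (adjusted p = 0.0627). The other 15 did not pass. Positive log2 fold changes were found for 12 and negative for 4 over 7 libraries, from -0.83 to 1.05, and the list median was 0.11. Over 8 libraries 7 were positive and 9 negative, with a median of -0.11. Of all tested genes 50% were negative over 7 libraries and 50.9% over 8.

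The list of lipogenic regulators holds transcription factors that sense sterols, sugars or lipids and the proteins that escort or retain some of them. All 10 were tested, 8 had a negative log2 fold change over 7 libraries, where 50% of all genes did, and none passed (limma; 3 had an unadjusted p under 0.05). Srebf2, the sterol-sensing transcription factor, stood at 45.7, 46.3, 49.0 and 48.4 CPM in AP1 to AP4 and at 32.6, 31.7 and 17.9 in AP_OCA1, AP_OCA3 and AP_OCA4, with AP_OCA2 at 26.3. All AP_OCA values of Srebf2 lay below all AP values, and the log2 fold change was -0.81 ± 0.21 (adjusted p = 0.0521 by limma). Srebf1 had -0.51 ± 0.20 and Insig2, which holds these factors in the endoplasmic reticulum, -0.47 ± 0.20, or -0.28 without AP_OCA1. With the trend of length and GC taken out, Srebf2 was at -0.38 (adjusted p = 0.185 by limma) and Srebf1 at -0.09. The list median was -0.40 over 7 libraries and -0.55 over 8, beside -8.96e-05 and -0.01 over all genes.

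**Figure D4:**
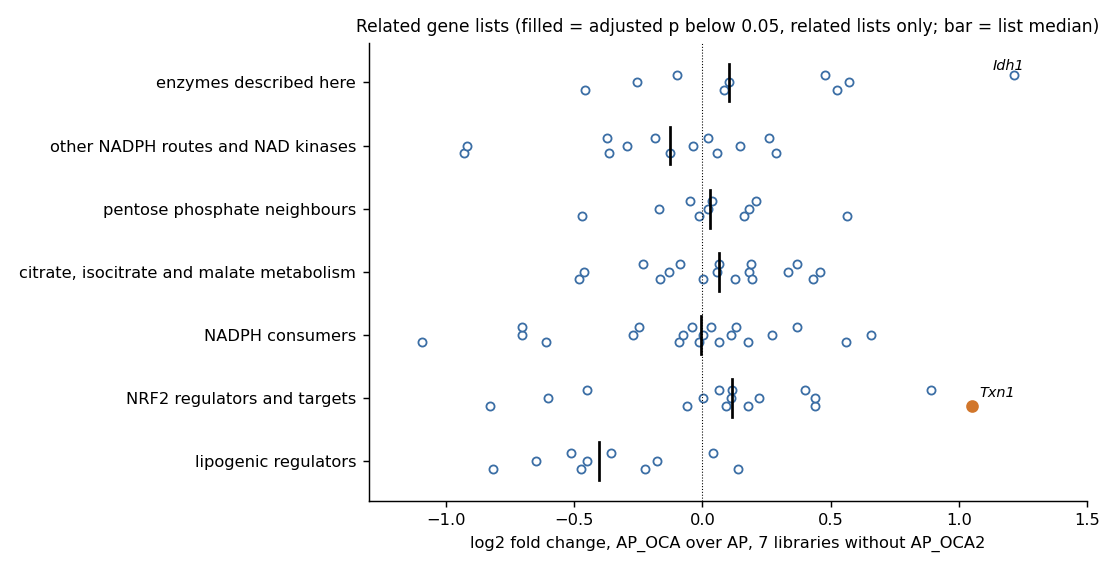
Log2 fold change over 7 libraries of the 9 enzymes and of each related list, 1 circle per tested gene, with a bar at the list median; filled circles, drawn for the related lists only, passed limma at an adjusted p under 0.05. Txn1 is the filled circle, Idh1 is labelled because the 9 were chosen on its value in this contrast, and the lipogenic regulators have the lowest median, -0.40. The related lists were also chosen with earlier results of these data known.

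Some genes followed the Idh1 pattern closely across the 7 libraries. Among 6695 named genes whose mean reached 5 CPM, the highest Pearson correlations of log2(CPM + 1) with Idh1 belonged to Fopnl (0.982), the mitochondrial import subunit gene Timm17a (0.978), the fatty acid binding protein gene Fabp5 (0.975), Perp, a p53 target (0.973), and Ccdc43 (0.972). These are the extremes of many correlations over 7 libraries that share the 2 groups. Fabp5 stood at 25.4 to 32.4 CPM in AP and at 54.4, 65.9 and 76.4 in AP_OCA1, AP_OCA3 and AP_OCA4, the order that Idh1 had in those 3. In AP_OCA2 Fabp5 was at 35.2, below those 3 and above its AP range. Timm17a had 14.2 CPM in AP_OCA2, inside its AP range of 13.9 to 15.8, while Fopnl was highest there at 14.8 and Perp lowest at 11.0. Among the 36 pairs of the 9 enzymes, Pgls and Rpia had the highest correlation over the 7 libraries (0.832), followed by Pgls and Idh1 (0.815), and G6pdx and Pgls the lowest (-0.785).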

How the data were processed

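The deposited table holds log2 values per gene for 8 RNA-seq libraries; the authors' lowest value in every library, -6.64, is log2 of 0.01, and their highest value is shared, as after quantile normalisation. Per the labels' protocols, total RNA went into a SMARTER library kit, and per the submitters' processing notes the build was mm10; the aligner and counter are not given in the sources used here. Values were returned to a linear scale, less the 0.01 offset, and made to sum to 1000000 per library (CPM). Genes averaging 1 CPM or more were tested on log2(CPM + 1) with limma 3.58.1 in R 4.3.3 (mean-variance trend, robust moderation), p-values adjusted over all genes tested by the Benjamini-Hochberg method, and checked on simulated data. Fold changes on that scale understate low genes. The 9 enzymes and the related lists were chosen with earlier results of these data known; 1 gene of the related lists is not reported here. Named from each related list were the genes that passed in either fit, otherwise the 3 lowest p over 7 libraries; also the 2 most abundant genes of each marker list and the 5 genes most correlated with Idh1, leaving out predicted genes; Nnt was named after its values were seen. Transcript lengths and GC content came from GENCODE M21.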

Additional observations from a re-analysis of the deposited data

Results flagged for a closer look

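In 50 groups of 4 libraries, AP and AP_OCA for each of the 9 enzymes and 16 related genes, 6 held a library far from the other 3 by Dixon's ratio at the 95% level, where chance flags about 1 in 20. Idh1 in AP1 was at 16.8 CPM, with AP2 to AP4 at 11.5 to 12.2, so the Idh1 spread within AP comes mostly from AP1. AP3 was low for Aldh1l2, at 18.5 CPM against 30.1 to 31.7, and high for H6pd, at 35.2 against 24.6 to 25.75. Txn1 in AP4 stood at 67.1 CPM against 63.0 to 63.7, a small difference within a tight group. AP_OCA2 was low for the mitochondrial enzymes Shmt2, at 24.4 CPM against 103 to 131, and Mdh2, at 73.3 against 97.5 to 102.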

How the results depend on the processing

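The number of genes passing over 7 libraries, 266, changed with most settings. It was 156 with a pseudocount of 0.1, 0 with no filter on low values, 14 without the mean-variance trend, 113 on the deposited log2 values, 1675 with quality weights, 559 with the replicate number as a block and 123 once the trend with length and GC was taken out. Leaving out 1 more library gave 7 (without AP3) to 973 (without AP_OCA1). A pseudocount of 5, a minimum of 5 CPM and median centring stayed within 1.5 times. Over 8 libraries the count was 0 in every setting run except 1052 with quality weights and 266 without AP_OCA2. Same-numbered libraries did not deviate together from group means that included AP_OCA2 (correlations across genes of -0.166, 0.034, 0.116 and -0.026). The check was not run without AP_OCA2, so it cannot decide on a pairing among the 7 libraries. The block rests on a shared number only. Of 314 recomputed values of the 9 enzymes, 311 moved by less than 1 SD between replicates. The other 3 came once that trend was taken out, 0.92 for Idh1 over 7 libraries and 0.36 and 0.54 for Tkt over 7 and 8. The SD is each gene's own in the main fit, which over 8 libraries includes the spread that AP_OCA2 brings. A smaller shift counted as unmoved even across 0, as for G6pdx over 8 libraries, from -0.46 to 0.30. Lost calls were not counted there. Idh1 passed in 11 of 17 settings over 7 libraries and in 2 of 18 over 8. Since the 9 were chosen on its value in this contrast, those Idh1 counts are a description only. Of 285 recomputed values of the 16 related genes, 262 kept their direction and side of the threshold, 9 lost the call, 13 gained it, and 1 turned, Prps2, at -0.036 with quality weights. The 9 lost calls were those of Txn1, and the 13 gained were 5 of Srebf2, 3 of Fasn, 2 each of Aldh1l2 and Mdh1 and 1 of Dera. Depth is unknown. Outside AP_OCA2, G6pdx and Rpia were the lowest of the 9 in CPM and lay on the lowest steps among the 9. In AP_OCA2 Me1 was the lowest, at 7.64 CPM and step 360.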
